A study of Mus musculus with 12 samples.

Results

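The nuclear pore genes were chosen by name: every gene symbol made of Nup followed by a digit, together with Tpr, Ranbp2, Rae1, Ndc1, Aaas, Pom121, Seh1l and Sec13. This took 29 of the 55291 symbols in the deposited count table. Of the 29, 28 had enough counts to be tested, among 19010 genes tested in all. Nup62cl, a Nup62-like gene on the X chromosome, was the member left out, with 0 to 3 counts per library. The rule used gene symbols alone, but it was set with earlier results of these data known.

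The libraries were made from total RNA of activated CD8+ T cells, the cytotoxic lymphocytes, from lymph node and spleen of mice. The mice were WT or Dock8 KO; Dock8 encodes an activator of the small GTPase Cdc42 and thereby of actin assembly. The cells had been activated and expanded for 3 days and then spent 24 h either in media or in a gel of bovine collagen at 2 mg/mL, a matrix that migrating T cells have to squeeze through. This gave 4 groups of 3 libraries, called WT media, WT gel, KO media and KO gel below. The labels give 3 mice per group and no strain, age or Dock8 allele, and they do not state whether media and gel libraries share mice. In bulk RNA, fewer cells of a type and less RNA per cell cannot be told apart.

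Nuclear pore complexes are the channels in the nuclear envelope through which proteins and RNA move between nucleus and cytoplasm. A scaffold of outer rings (built from the Y complex) and an inner ring is anchored in the membrane by a membrane ring and lines a central channel filled with flexible phenylalanine-glycine repeats, which transport receptors bind. Filaments extend from the cytoplasmic face and a basket from the nuclear face. Cells build pores after mitosis and again during interphase, when the growing nucleus inserts new ones into an intact envelope. In T cells the pore is best known for the import of transcription factors after stimulation, and for Nup210, a membrane nucleoporin studied in T cell survival.

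The 250 bases before the transcription start are shown for 5 members, as given by RefSeq on GRCm38.p6. Nup62, Nup107 and Nup50 are shown because their transcripts were lower in KO gel and their promoters held the letters GCATGCG, an NRF1-like motif found in no other member with a promoter entry. Nup210, the most abundant member per length and also lower in KO gel, held TTTNNCGC, an E2F-like motif, and Tpr is shown as an abundant member that was not called. The NRF1-like letters occurred in 3 of the 10 lower members with an entry. Nup54, which was not called, also held the E2F-like letters. The part of these motifs in the levels was not tested. Capitals mark matches on either strand. Besides these motifs, the search took in an ETS-like motif with the letters CCGGAAG and an NF-Y-like motif with the letters CCAAT. It also covered the E-box CACGTG and a YY1-like motif with the letters GATGGCG.
Nup62, chr7:44815838-44816087, plus strand: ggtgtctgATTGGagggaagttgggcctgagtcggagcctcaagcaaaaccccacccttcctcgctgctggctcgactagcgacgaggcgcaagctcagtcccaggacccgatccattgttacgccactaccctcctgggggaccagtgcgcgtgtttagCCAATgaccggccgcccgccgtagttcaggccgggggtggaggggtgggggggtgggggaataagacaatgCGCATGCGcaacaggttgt
Nup107, chr10:117792706-117792955, minus strand: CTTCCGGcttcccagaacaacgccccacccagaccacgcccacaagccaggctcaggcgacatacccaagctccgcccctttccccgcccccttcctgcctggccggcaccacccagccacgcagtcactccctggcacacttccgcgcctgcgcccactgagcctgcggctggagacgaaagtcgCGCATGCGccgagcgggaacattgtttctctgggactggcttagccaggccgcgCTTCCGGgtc
Nup50, chr15:84923178-84923427, plus strand: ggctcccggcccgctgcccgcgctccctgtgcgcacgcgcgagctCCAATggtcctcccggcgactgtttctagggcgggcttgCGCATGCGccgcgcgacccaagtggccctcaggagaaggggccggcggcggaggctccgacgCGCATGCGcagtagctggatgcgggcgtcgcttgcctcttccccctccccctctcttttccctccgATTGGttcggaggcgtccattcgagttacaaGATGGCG
Nup210, chr6:91116827-91117076, minus strand: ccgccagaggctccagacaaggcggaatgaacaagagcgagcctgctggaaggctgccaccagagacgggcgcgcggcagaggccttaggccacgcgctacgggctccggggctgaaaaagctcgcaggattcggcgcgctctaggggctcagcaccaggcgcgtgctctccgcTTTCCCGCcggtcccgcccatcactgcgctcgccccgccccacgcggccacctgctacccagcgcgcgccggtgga
Tpr, chr1:150392588-150392837, plus strand: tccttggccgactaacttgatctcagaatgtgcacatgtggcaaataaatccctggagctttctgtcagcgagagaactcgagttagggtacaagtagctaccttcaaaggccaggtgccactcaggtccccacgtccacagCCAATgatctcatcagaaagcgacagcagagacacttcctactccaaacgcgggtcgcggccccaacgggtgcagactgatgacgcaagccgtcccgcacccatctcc
In Nup62 the NRF1-like match lay 18 to 19 bases before the start, in Nup107 63 to 64 bases before it, and in Nup50 at 2 places, beginning 103 to 104 and 165 to 166 bases before it. Each is a near-palindrome, so both strands match with a shift of 1 base.

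Counts assigned to genes came to between 28483064 and 61390702 per library, and the least abundant member tested, Nup210l, still had at least 197 counts in each. Levels are given as CPM, the count per 1000000 counts of the library, with TMM factors scaling between libraries. The KO gel libraries stood apart from the other 9: the number of genes expected with a count at equal depth was 28362 to 30104 in them and 24336 to 25142 in the others. Mitochondrial genes took 2.27 to 2.61% of the counts in KO gel, 2.31% in KO media library 2 and 1.34 to 1.64% in the other 8. Genes removed by the filter on low counts took 0.0913 to 0.104% in KO gel and 0.0437 to 0.0532% in the other 9. Ribosomal RNA-like loci reached 19.0% of WT gel library 2 and 12.5% of KO media library 3, and lay between 3.88 and 9.56% elsewhere. Dock8 stood at 29.4% of the WT level in KO media and 39.3% in KO gel. The 5 CD8 T cell markers summed to between 2148 and 2644 CPM in every library. The 19 markers of other cell types summed to 5.01 to 8.39 CPM outside KO gel and 7.31 to 11.6 CPM in it, with the neutrophil gene S100a9 at 0 throughout. The part of these library differences in the results below was not tested.

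In KO cells, 14 of the 28 nuclear pore transcripts were lower in gel than in media and 1 was higher, at an adjusted p under 0.05 (quasi-likelihood F test of edgeR, Benjamini-Hochberg adjustment over the 19010 genes). Over all genes tested, 9.74% were lower and 11.1% higher. Among the 9959 abundant genes (mean log2 CPM of at least 3) 16.8% were lower and 6.42% higher. This limit is a floor under the members and no match of their abundance. Nup210l, the least abundant member tested, lay just above it at 3.28. Of the 9051 genes below it, 1.97% were lower and 16.3% higher. The 14 stood at 65.4 to 85.5% of their KO media level, so the decreases were moderate. Their log2 fold changes ran from -0.61 to -0.23, and the median over the 28 was -0.24 against -0.01 over all genes tested and -0.08 over the 9959. Of the 28, 24 had a value below 0.

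The called members sat mainly in the scaffold: 6 of 8 in the outer ring, 4 of 5 in the inner ring, 2 of 5 in the membrane ring, 1 of 2 in the central channel, 0 of 5 at the cytoplasmic face and 1 of 3 in the basket were lower. Scaled by total counts alone, 8 were lower, and the split of all genes moved from 2111 higher and 1851 lower to 2007 and 869. The count was 9 without KO gel library 1, and 8 when WT gel library 2 and KO media library 3, both rich in ribosomal RNA, were left out. Ndc1, Nup43, Nup85, Nup62, Nup133, Nup107, Nup205 and Nup210l passed the test under all 22 alternative settings, and all 15 called values kept their sign.

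**Figure D1:**
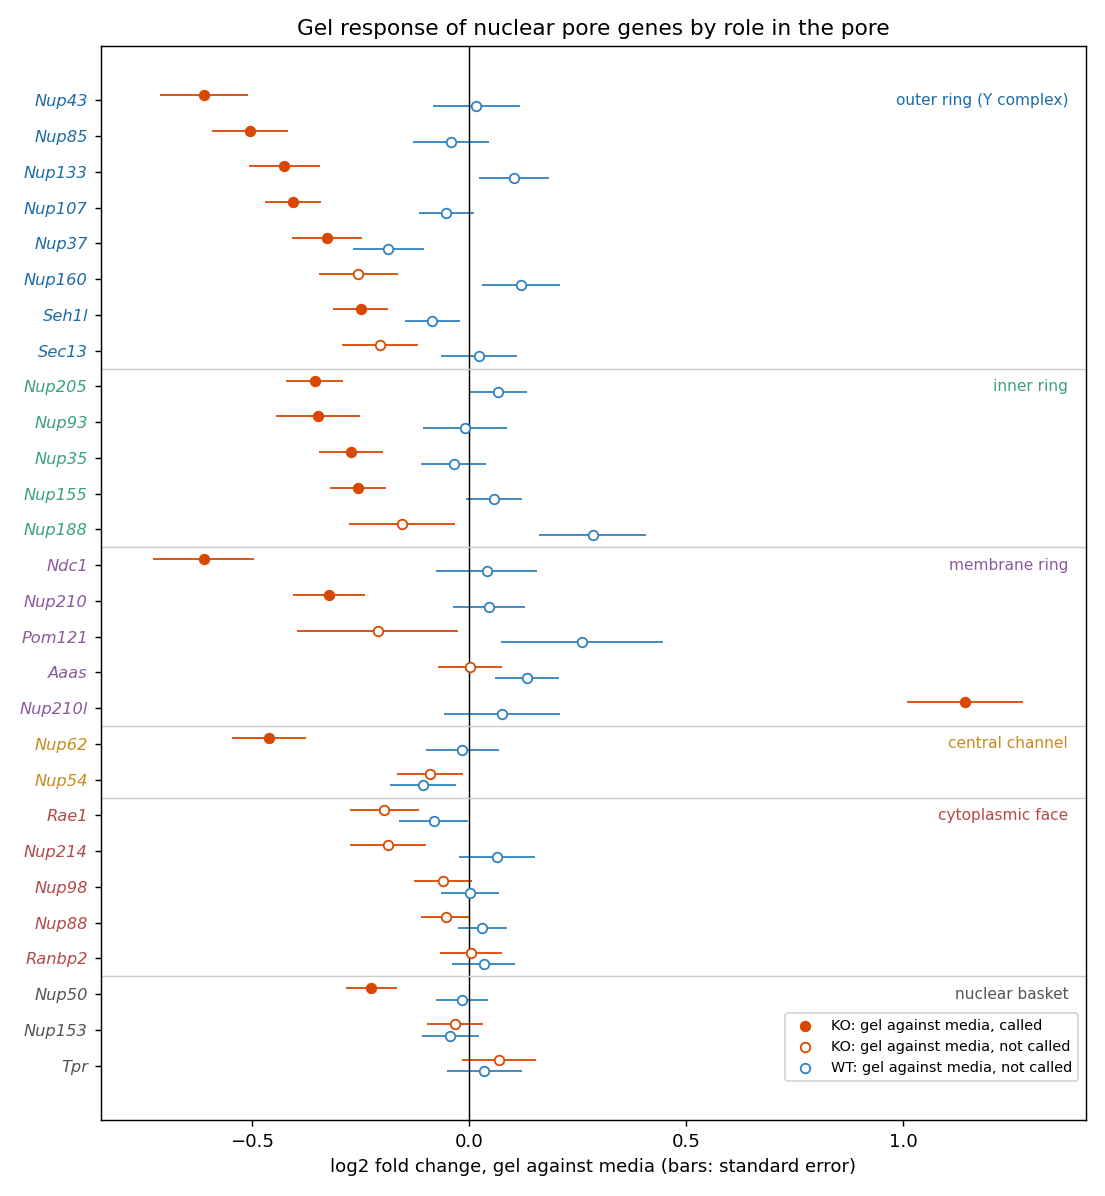
Log2 fold change of gel against media for the 28 tested nuclear pore transcripts, grouped by role in the pore; points are estimates, bars are standard errors, orange is KO, blue is WT and filled points passed the test. In KO cells the outer and inner ring points lie left of 0, those of the cytoplasmic face run from -0.20 for Rae1 to 0.00 for Ranbp2, and Nup210l is the one called point on the right at 1.14; none of the WT points passed.

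The outer ring, or Y complex, is the coat-like scaffold that stacks on both faces of the pore and is needed to assemble it. Of its 8 tested subunits, Nup43, Nup85, Nup133, Nup107, Nup37 and Seh1l fell in KO gel against KO media, with a median of -0.37 (log2) over the 8. Nup160 and Sec13 had values of -0.26 (SE 0.09, adjusted p 0.0576) and -0.21 (SE 0.09, adjusted p 0.105), and were called lower in 9 and 4 of the 22 alternative settings. Taken per library, the median of the 8 relative to the WT media mean was -0.42, -0.28 and -0.35 (log2) in the KO gel libraries and between -0.09 and 0.10 in the other 9.

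Nup107, a subunit of the stem of the Y (chr10:117750621-117792705), had 68.5, 74.4 and 72.5 CPM in KO gel, against 95.8, 93.6 and 96.3 in KO media, 96.7, 88.7 and 85.8 in WT gel and 99.4, 91.1 and 90.8 in WT media. All 3 KO gel libraries lay below all 9 others. The KO gel level was 75.4% of KO media, a log2 fold change of -0.41 (SE 0.06, adjusted p 0.000799), the smallest p in the ring. Nup133, its neighbour at the tip of the stem, which senses membrane curvature (chr8:123897123-123949265), stood at 36.9, 42.3 and 42.2 CPM in KO gel, against 53.9, 53.7 and 55.7 in KO media, 63.7, 58.0 and 52.4 in WT gel and 58.0, 53.9 and 50.3 in WT media. Here too the KO gel libraries were the 3 lowest, with a log2 fold change of -0.43 against KO media (SE 0.08, adjusted p 0.00282). Exons of Nup133 overlap 2 antisense genes, Gm29773 and Gm45890, over 461 and 268 bases, and whether counting used strand is not given in the sources used here.

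Nup43, a small propeller on the arm of the Y (chr10:7667503-7678881), had 11.4, 13.1 and 12.2 CPM in KO gel, against 18.3, 19.4 and 18.4 in KO media, 18.6, 16.0 and 16.7 in WT gel and 19.7, 16.0 and 15.1 in WT media. The KO gel values did not overlap any other group, and the decrease to 65.4% of KO media (-0.61, SE 0.10, adjusted p 0.00114) was the deepest in the ring. For Nup85, the arm subunit that holds Seh1l (chr11:115564434-115583985), the libraries read 52.9, 61.2 and 58.1 CPM in KO gel, against 81.6, 80.9 and 82.0 in KO media, 88.4, 79.4 and 69.5 in WT gel and 89.0, 79.3 and 75.9 in WT media. The 3 KO gel libraries again lay below the other 9, at 70.5% of KO media (-0.50, SE 0.09, adjusted p 0.00162).

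Nup37, a propeller that sits on Nup160 (chr10:88146992-88178390), had 17.4, 20.1 and 18.0 CPM in KO gel, against 22.2, 24.8 and 22.7 in KO media, 20.8, 19.8 and 19.5 in WT gel and 24.2, 23.4 and 20.8 in WT media. Its KO gel libraries lay below KO media, with a log2 fold change of -0.33 (SE 0.08, adjusted p 0.0126), but overlapped WT gel. Seh1l, a propeller shared by the Y complex and the GATOR2 complex of nutrient sensing, stood at 57.7, 54.1 and 55.4 CPM in KO gel, against 62.8, 72.2 and 64.0 in KO media, 58.7, 59.4 and 60.1 in WT gel and 64.2, 61.2 and 63.7 in WT media. Its KO gel values were the lowest of all 12, yet the distance to KO media was small (-0.25, SE 0.06, adjusted p 0.0134), and WT gel also lay below WT media without passing the test (-0.09, SE 0.06, adjusted p 0.994). The calls of Nup37 were lost without KO gel library 1 or KO gel library 3, and that of Seh1l without KO gel library 2.

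The inner ring joins the outer rings to the membrane and to the channel. Nup205, Nup93, Nup35 and Nup155 fell in KO gel against KO media, and Nup188, the relative of Nup205, had a value of -0.16 (SE 0.12, adjusted p 0.367). Nup205, a large scaffold protein (chr6:35177421-35247596), had 133, 152 and 145 CPM in KO gel, against 183, 177 and 191 in KO media, 185, 175 and 168 in WT gel and 168, 171 and 164 in WT media. The KO gel libraries were the 3 lowest of 12, and the log2 fold change was -0.36 (SE 0.07, adjusted p 0.00237). Nup155, which binds the membrane and links the layers of the ring (chr15:8109273-8161247), stood at 72.5, 81.0 and 77.9 CPM in KO gel, against 89.6, 91.2 and 95.7 in KO media, 91.4, 93.4 and 91.2 in WT gel and 82.2, 93.4 and 89.9 in WT media. It too was lowest in the 3 KO gel libraries, with a log2 fold change of -0.26 (SE 0.06, adjusted p 0.0133).

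Nup93, the hub that recruits Nup205 and Nup188, and Nup35, a membrane-binding subunit, reached 56.0 ± 5.48 and 14.2 ± 0.739 CPM in KO gel (SD, n = 3), against 71.4 ± 3.79 and 17.2 ± 0.442 in KO media. These differences were -0.35 (SE 0.10, adjusted p 0.0206) and -0.27 (SE 0.07, adjusted p 0.0191) on the log2 scale. Nup93 in KO gel overlapped both WT groups, whereas Nup35 lay below WT gel and overlapped WT media. Leaving out KO gel library 1 ended the calls of Nup155, Nup35 and Nup93, leaving out KO gel library 3 that of Nup35, and leaving out KO media library 3 that of Nup93. Across the alternative settings the adjusted p reached 0.0846 for Nup155, 0.101 for Nup35 and 0.103 for Nup93, and all values stayed below 0.

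The membrane ring held the one rise and one of the deepest decreases. Ndc1, a transmembrane protein needed to insert pores into the envelope (chr4:107367784-107416346), had 17.8, 22.4 and 21.3 CPM in KO gel, against 28.2, 35.2 and 30.8 in KO media, 26.8, 27.8 and 21.7 in WT gel and 26.3, 25.6 and 22.1 in WT media. The KO media libraries were the 3 highest of 12, and KO media against WT media gave 0.35 (SE 0.12, adjusted p 0.507, not called). Against KO media the KO gel level was 65.4% (-0.61, SE 0.12, adjusted p 0.00277), while against WT gel the value was -0.31 (SE 0.12, adjusted p 0.0977) with overlapping libraries.

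Nup210, a large glycoprotein with most of its mass in the lumen of the envelope (chr6:91013068-91116829), was the most abundant member. It took 21.7 to 26.4% of all member counts, with 703, 825 and 753 CPM in KO gel, against 986, 909 and 959 in KO media, 991, 969 and 857 in WT gel and 952, 932 and 846 in WT media. All 3 KO gel libraries lay below the other 9. The log2 fold change was -0.32 (SE 0.08, adjusted p 0.0153), and the call was lost without KO gel library 1, KO gel library 3 or KO media library 1 (adjusted p up to 0.0699 across the alternatives).

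Nup210l, a Nup210 relative best known from the testis (chr3:90104132-90212048), went the other way. It had 14.9, 14.8 and 14.7 CPM in KO gel, against 7.08, 5.75 and 7.23 in KO media, 8.25, 7.84 and 10.4 in WT gel and 7.49, 7.87 and 9.93 in WT media. The 3 KO gel libraries were the highest of 12, with an SD of 0.111 CPM. KO gel reached 221% of KO media (1.14, SE 0.13, adjusted p 0.000112) and 166% of WT gel (0.73, SE 0.13, adjusted p 0.0024), the smallest p of any member in the first of these comparisons. Its level stayed far below that of Nup210 in every group, at a mean log2 CPM of 3.28. Pom121, a transmembrane nucleoporin with repeats, had 31.9 ± 3.58 CPM in KO gel and 37.0 ± 7.20 in KO media (SD, n = 3), and Aaas, the gene of the peripheral protein Aladin, 61.3 ± 4.45 and 61.3 ± 1.03; neither passed the test. Pom121 shares 665 bases of exon, 11.9% of its exon length, with Nsun5 on the opposite strand.

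**Figure D2:**
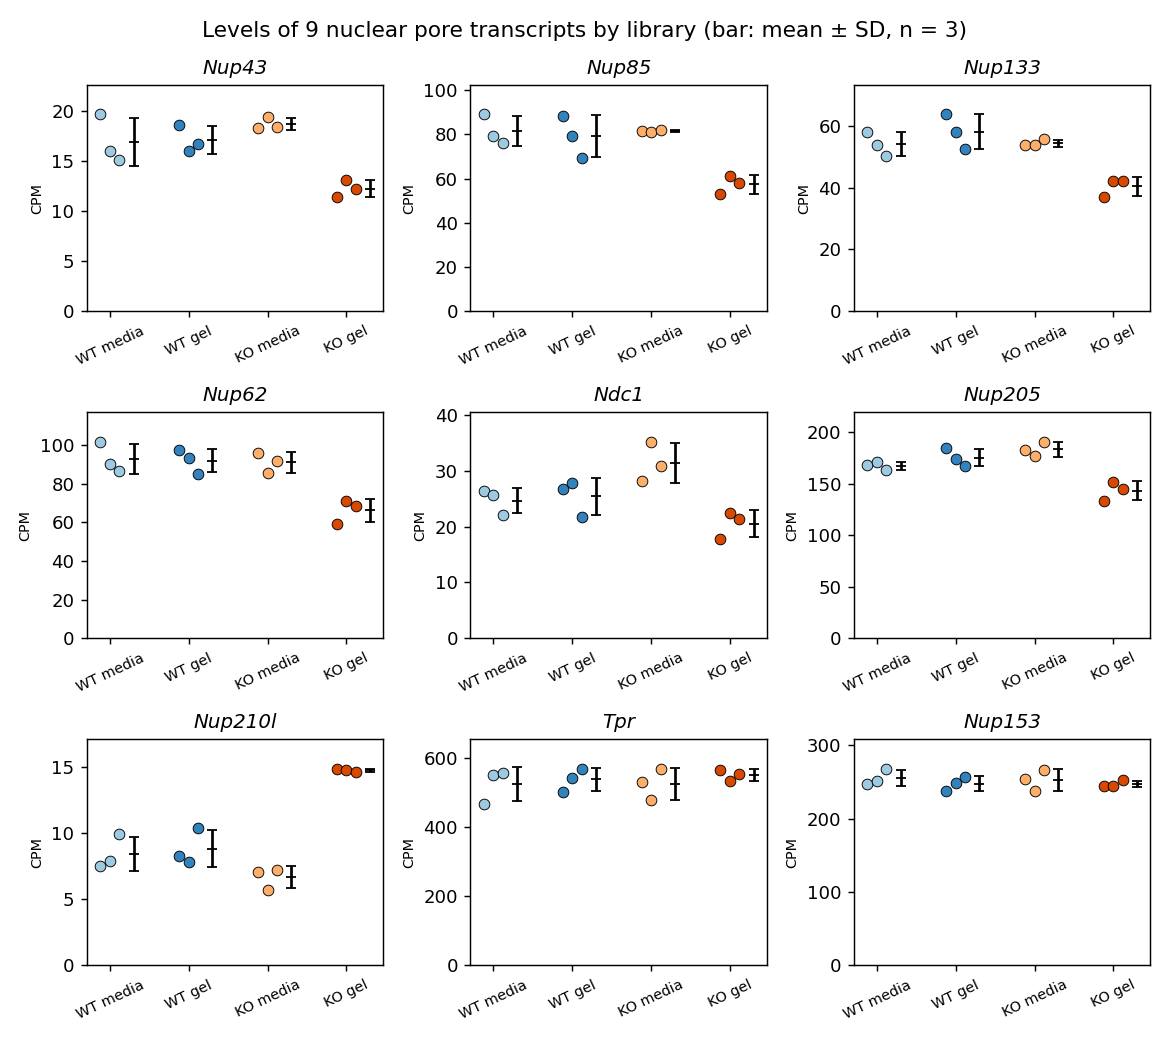
CPM of 9 nuclear pore transcripts in each library, with 3 points per group and a bar for the mean ± SD (n = 3); each axis starts at 0. The KO gel points of Nup43, Nup85, Nup133, Nup62 and Nup205 lie below all other points, those of Nup210l above them, and those of Tpr and Nup153 within the range of the other groups.

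In the central channel, Nup62 and Nup54 encode repeat proteins that form one subcomplex and interact with transport receptors. Nup62 (chr7:44816088-44830812) had 59.2, 70.8 and 68.5 CPM in KO gel, against 96.1, 85.3 and 92.0 in KO media, 97.3, 93.2 and 85.3 in WT gel and 102, 90.3 and 86.7 in WT media. The KO gel libraries did not overlap the other 9 and stood at 72.6% of KO media (-0.46, SE 0.08, adjusted p 0.00221). Its exons share 97 bases with Il4i1 on the same strand and 82 with Atf5 on the other. Nup54 had 32.3 ± 1.63 CPM in KO gel and 34.5 ± 1.75 in KO media (SD, n = 3), a log2 value of -0.09 (SE 0.08, adjusted p 0.404). Nup58, the partner of this subcomplex, is listed under its older symbol Nupl1, outside the naming rule, with 0 to 5 counts per library; whether its reads were counted elsewhere was not tested.

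At the cytoplasmic face 0 of 5 members passed edgeR's test (1 at an unadjusted p under 0.05), and DESeq2 and limma-voom also called 0. Of the 19010 genes tested, 6982 had an unadjusted p under 0.05 in KO gel against KO media. Of the 22 alternative settings, 5 called Rae1 lower and 3 called Nup214 lower; with no filter on low counts both passed. This face releases exported mRNA and carries binding sites for Ran, the GTPase that gives transport its direction. Rae1, an mRNA export factor that binds Nup98, had the smallest p of the 5, with 44.4, 47.5 and 47.1 CPM in KO gel, against 54.5, 52.5 and 52.3 in KO media, 52.9, 50.3 and 45.0 in WT gel and 57.6, 47.1 and 52.0 in WT media. The KO gel libraries lay below KO media and overlapped WT gel (against KO media -0.20, SE 0.08, adjusted p 0.0889). Nup214, which docks export helicases, had a value of -0.19 (SE 0.09, adjusted p 0.138), and its partner Nup88 one of -0.05 (SE 0.06, adjusted p 0.499). Ranbp2, the long filament protein, had 385 ± 5.19 CPM in KO gel and 385 ± 23.4 in KO media (SD, n = 3), and Nup98 137 ± 5.72 and 143 ± 4.08. The Nup98 transcript also encodes Nup96, a Y complex subunit, and counts per gene cannot separate both products. The 12 pseudogenes named after Ranbp2 summed to at most 4 counts in a library, against 9458 to 22764 for Ranbp2.

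In the nuclear basket, Nup50, which helps disassemble import complexes (chr15:84923411-84942963), fell while Tpr and Nup153 did not pass the test. Nup50 had 117, 117 and 118 CPM in KO gel, against 141, 131 and 138 in KO media, 141, 139.8 and 133 in WT gel and 146, 137 and 135 in WT media. Its KO gel libraries were the 3 lowest and lay close together, and the log2 fold change of -0.23 (SE 0.06, adjusted p 0.0161) was the smallest among the 14 decreases. The call was lost without KO gel library 2 or KO media library 1 (adjusted p up to 0.123 across the alternatives). Tpr, the main strand of the basket, had 552 ± 16.8 CPM in KO gel and 526 ± 45.9 in KO media (0.07, SE 0.09, adjusted p 0.59), and Nup153, which tethers it, 247 ± 4.38 and 253 ± 14.7 (-0.03, SE 0.07, adjusted p 0.743; SD, n = 3). The median of the 3 basket genes per KO gel library was -0.06, -0.06 and -0.02 (log2, relative to the WT media mean), and between -0.10 and 0.07 in the other 9.

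**Figure D3:**
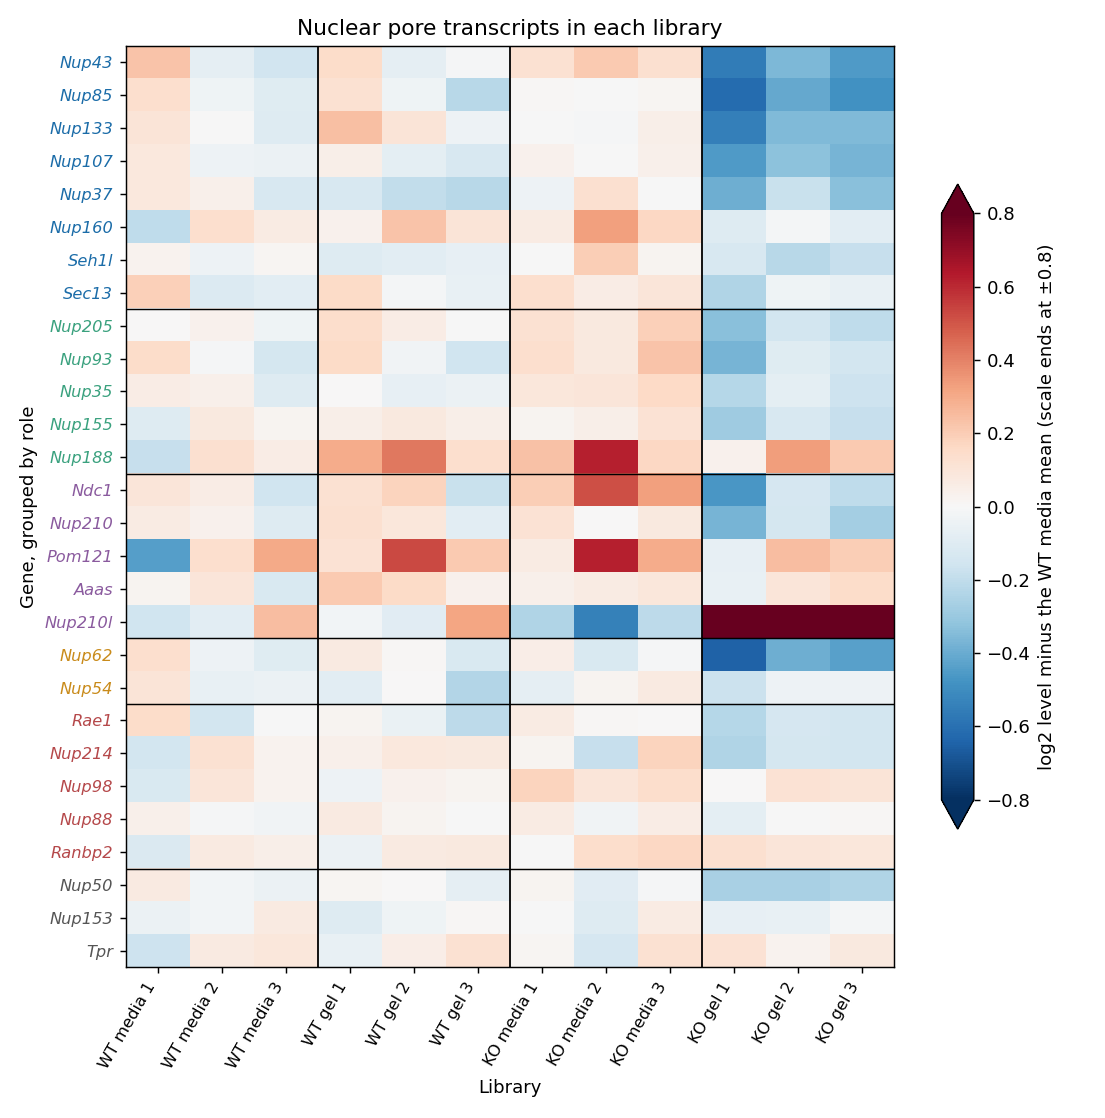
Log2 level of the 28 nuclear pore transcripts in each of the 12 libraries, minus the WT media mean of the gene; rows are grouped by role, blue is lower, red is higher and the colour scale ends at ±0.8. The 3 KO gel columns are blue across most of the outer and inner ring and pale for Ranbp2, Nup98, Nup153 and Tpr, with Nup210l red in all 3.

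The SD over the 28 members of a library, each taken relative to its WT media mean, was 0.08 to 0.24 (log2) in the 9 libraries outside KO gel. It was 0.25 to 0.29 in KO gel. The ranges nearly touch, at 0.237 in KO media library 2 and 0.251 in KO gel library 2. Nup210l, the highest member in KO gel at 0.81 to 0.83, enters these SDs, and its part in them was not tested. Taking values relative to the WT media mean also keeps the WT media SDs small. Pom121 ranged from 21.5 to 36.0 CPM in WT media alone. KO gel library 1 had the lowest median over the members, at -0.23, against -0.11 and -0.15 in KO gel libraries 2 and 3. Counting libraries rather than tests, 17 members lay below KO media without overlap in KO gel and 1 above, beside 23.9% and 23.5% of all genes tested. Against all 9 other libraries, 10 lay below and Nup210l above, beside 11.3% and 10% of all genes.

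In WT cells no member was called. In WT gel against WT media, 0 of the 28 passed edgeR's test in either direction (2 at an unadjusted p under 0.05, Nup188 and Nup37), beside 0.0316% of all genes higher and 0.00526% lower. DESeq2 and limma-voom called 0 as well. Of the 19010 genes tested, 1033 had an unadjusted p under 0.05 in this comparison. The median over the members was 0.03 (log2), and values ran from -0.19 for Nup37 to 0.28 for Nup188. Nup188 had 50.3 ± 4.96 CPM in WT gel and 41.3 ± 4.57 in WT media (SD, n = 3), with no overlap between the libraries, and was not called (SE 0.12, adjusted p 0.901). It was the only member above WT media without overlap and Seh1l the only one below, beside 4.65% and 4.53% of all genes.

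Without gel, no member was called between the genotypes. In KO media against WT media 0 of the 28 passed edgeR's test, beside 0.0263% of all genes higher and 0.163% lower, with a median of 0.06 and 3 members at an unadjusted p under 0.05. These 3 were Ndc1 (0.35, SE 0.12), Nup188 (0.35, SE 0.12, adjusted p 0.545) and Nup210l (-0.33, SE 0.13, adjusted p 0.607). Of the 19010 genes tested, 1423 had an unadjusted p under 0.05 in this comparison. Ndc1, Nup188, Nup205 and Nup35 lay above WT media without overlap and Nup210l below, beside 4.88% and 5.83% of all genes. DESeq2 and limma-voom called 0 as well, while with no filter on low counts edgeR's test called 3 higher (Ndc1, Nup188 and Pom121).

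In gel, KO cells differed from WT cells in 10 members. Nup133, Nup43, Nup62, Nup85, Nup107, Nup210, Nup205, Nup155 and Nup50 were lower in KO gel than in WT gel and Nup210l was higher, beside 7.71% and 7.12% of all genes tested, and 13.3% and 4.03% of the 9959 abundant ones. The deepest decrease was that of Nup133, to 69.7% of WT gel (-0.52, SE 0.08, adjusted p 0.00105), followed by Nup43 at 71.5% (-0.48, SE 0.10, adjusted p 0.00656), Nup62 at 72.0% (-0.47, SE 0.08, adjusted p 0.00232) and Nup85 at 72.6% (-0.46, SE 0.09, adjusted p 0.00352). Nup107 had -0.33, Nup210 -0.30, Nup205 -0.29, Nup155 -0.25 and Nup50 -0.24 (adjusted p 0.00388 to 0.0251). The median over the 28 was -0.15, against 0.00 over all genes and -0.07 over the 9959. By libraries, 13 members lay below WT gel without overlap, and Nup210l and Ranbp2 above it, beside 19.9% and 18.3% of all genes.

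This comparison shares the KO gel libraries with that against KO media, so the members are set side by side and not counted as separate evidence. All 9 decreases were also called against KO media, while Ndc1, Nup35, Nup37, Nup93 and Seh1l were called against KO media only. For those 5 the values against WT gel were -0.31, -0.12, -0.12, -0.20 and -0.09. The calls against WT gel of Nup210 were lost without WT gel library 1, WT gel library 2, KO gel library 1 or KO gel library 3, those of Nup50 without WT gel library 1, WT gel library 2 or KO gel library 2, and those of Nup155 without WT gel library 2 or KO gel library 1. Without scaling beyond total counts, 4 remained lower of 9 and the median became -0.04, with that of all genes at 0.10. Of all genes tested, 2.14% were lower under that scaling, in place of 7.71%. Ndc1, Nup214 and Nup160, not called against WT gel, were called lower in 3, 5 and 1 of the 21 alternatives.

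**Figure D4:**
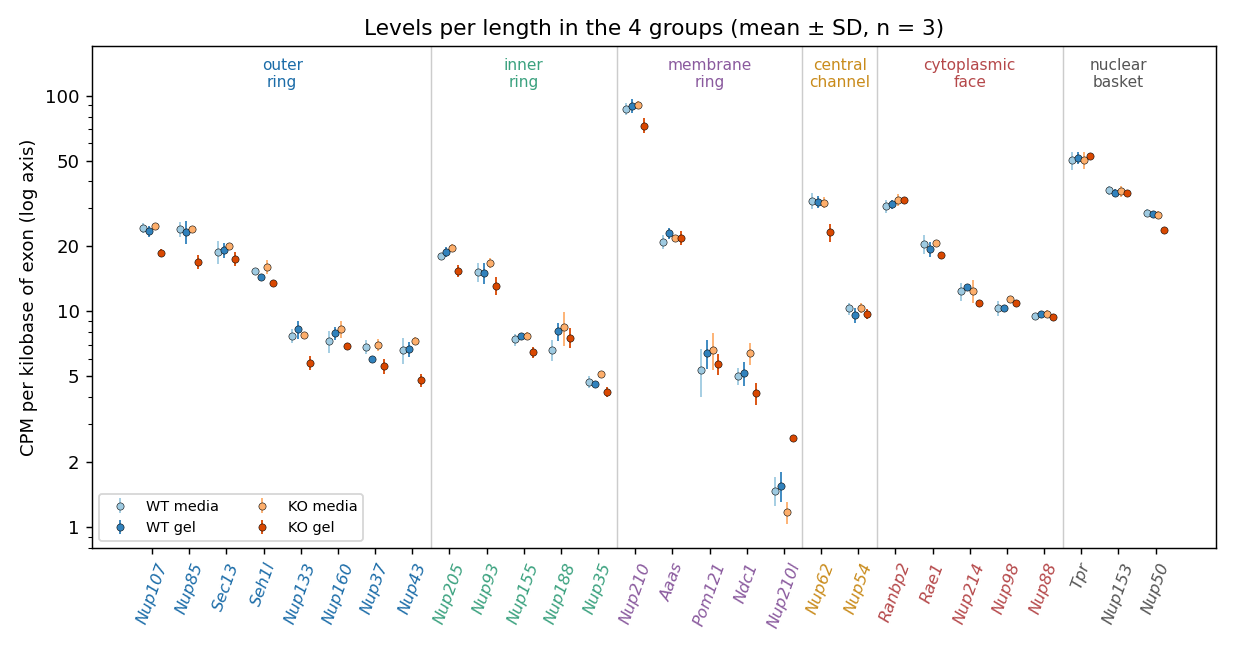
CPM per kilobase of exon (log axis) for the 28 tested members, ordered by role and by level in WT media; points are group means and bars SD (n = 3). Nup210 is highest in all 4 groups and Nup210l lowest, and the KO gel points of the outer ring lie below the other 3 groups.

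For 6 members the response to gel was not the same in both genotypes, by the interaction of genotype and culture: it was more negative in KO cells for Ndc1, Nup43, Nup133, Nup205 and Nup107, and more positive for Nup210l. Over all genes tested, 1.45% had a more negative and 1.89% a more positive value, and 2.66% and 1.03% of the abundant ones. The interaction value was -0.53 for Nup133 (SE 0.11, adjusted p 0.0264), whose gel response was 0.10 in WT and -0.43 in KO cells, and 1.07 for Nup210l (SE 0.19, adjusted p 0.012). Nup62 and Nup85 had values of -0.44 (SE 0.12, adjusted p 0.0571) and -0.46 (SE 0.12, adjusted p 0.057) and were not called. Among the 28, 24 interaction values were below 0, with a median of -0.24 against 0.00 for all genes and -0.07 for the 9959 abundant ones. An unadjusted p under 0.05 was reached by 15 of the 28, beside 3726 of the 19010 genes tested.

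These interaction calls depended on the setting. Scaled by total counts alone the split was 1 more positive and 0 more negative in place of 1 and 5, and the median of all genes moved to 0.12 with that of the members at -0.11. Of all genes tested, 0.126% were more negative under that scaling, in place of 1.45%. No negative interaction was called without WT media library 2 or 3, KO media library 1 or 3, WT gel library 1 or 2, or KO gel library 1. The number was 1 without KO gel library 3, 2 without KO media library 2 and 3 without KO gel library 2, and 8 without WT media library 1 or WT gel library 3. Other settings added calls: DESeq2 gave 9 negative interactions and edgeR's test with no filter on low counts 12, Nup62 and Nup85 among them in both. The shares of all genes called in these settings are not given here. All 6 values kept their sign in the 21 alternatives.

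Per kilobase of exon, using the union of GENCODE M21 exons, Nup210 stood highest in WT media at 86.9 ± 5.39 CPM (SD, n = 3), followed by Tpr at 50.1 ± 4.75. Nup153 (36.4 ± 1.60), Nup62 (32.6 ± 2.76), Ranbp2 (30.6 ± 2.11) and Nup50 (28.5 ± 1.22 CPM per kilobase) came next, and neighbours in that order lay closer together than the sum of their SDs. Nup107 and Nup85 followed at 24.3 ± 1.27 and 24.0 ± 2.01, as the leading outer ring subunits by this length. At the low end stood Ndc1 at 5.01 ± 0.467, Nup35 at 4.71 ± 0.284 and Nup210l at 1.47 ± 0.229 CPM per kilobase. In KO gel Nup62, at 23.2 ± 2.14 CPM per kilobase, stood below Ranbp2 of the cytoplasmic face at 32.9 ± 0.443. Nup62 and Nup50 (23.9 ± 0.157) lay closer together there than the sum of their SDs. Within the Y complex the levels ran from Nup107 down to Nup43, at 6.61 ± 0.942 CPM per kilobase. With the longest transcript as length, Sec13 moved furthest in the order, by 7 places, from rank 11 to 4. It then led the outer ring, ahead of Nup85 at rank 6 and Nup107 at rank 8.

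The 14 lower members had a median exon length of 4189 bases and the 13 that were not called 7017 bases, with wide and overlapping ranges (2560 to 11951 and 2554 to 12602). The members lie on 14 chromosomes. RefSeq start sites were found for 24 of the 29; Nup210l, Nup35, Nup43, Nup85 and Seh1l had no entry. In the 300 bases from 250 before to 50 after a start, the E2F-like letters TTTNNCGC occurred in 5 of the 24 (4 of 10 lower members and 1 of 13 not called), against 5.17% of 32851 promoters and 5.93% of 27025 genes. The YY1-like GATGGCG occurred in 6 of the 24, beside 4.04% of all genes and 3.49% of all promoters, and the ETS-like CCGGAAG in 7, beside 9.93% and 8.86%. CCAAT occurred in 10, or 41.7%, close to the 41.1% of all genes (37.4% of promoters), and CACGTG in 4, beside 8.09% and 7.15%. GCATGCG occurred in 3, the Nup62, Nup107 and Nup50 promoters printed above, beside 4.01% of all genes and 3.58% of all promoters. Split by call, the YY1-like letters occurred in 4 of 10 lower members and 2 of 13 not called. The numbers were 3 and 4 for ETS-like, 5 and 4 for CCAAT, 1 and 3 for CACGTG, and 3 and 0 for GCATGCG. These are matches of letters, with no test, and binding was not measured.

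Of 23 genes of transport receptors, which carry cargo through the pore, 6 fell (26.1%) and 2 rose in KO gel against KO media, with a median of -0.10 (log2). Beside this stand the 9.74% lower of all genes tested and the 16.8% lower of the 9959 abundant ones. Kpna2, an importin alpha, went from 84.9 ± 4.05 CPM in KO media to 60.9 ± 3.32 in KO gel (-0.48, SE 0.06, adjusted p 0.00027), and the importins Ipo7 and Ipo5 had -0.58 (SE 0.09, adjusted p 0.00053) and -0.54 (SE 0.10, adjusted p 0.0026). Kpna4, another importin alpha, rose (0.25, SE 0.07, adjusted p 0.022). In the Ran cycle 2 of 9 fell (22.2%, near the share of the abundant genes), Rcc1, the nuclear exchange factor that loads Ran with GTP (-0.37, SE 0.06, adjusted p 0.0011), and Ran itself (-0.42, SE 0.11, adjusted p 0.018).

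Of 21 mRNA export genes, 7 fell (33.3%) and 0 rose, with a median of -0.15. In the same comparison 9.74% of all genes tested and 16.8% of the 9959 abundant ones were lower, with medians of -0.01 and -0.08. Alyref, an export adaptor, had -0.32 (SE 0.07, adjusted p 0.0068), Cetn3, a centrin of the export complex at the pore, -0.27 (SE 0.07, adjusted p 0.015), and Nxt1, a subunit of the main mRNA export receptor, -0.41 (SE 0.11, adjusted p 0.018). Of 11 other pore-associated genes 1 fell, Banf1, a protein that bridges chromatin and envelope (-0.40, SE 0.09, adjusted p 0.0077). Sec13 and Seh1l also serve other complexes. In the COPII coat of secretory vesicles, which uses Sec13, 1 of 12 fell (Sar1b, -0.27, SE 0.08, adjusted p 0.034), and in the GATOR complexes, which use Seh1l and Sec13, 0 of 6 passed edgeR's test (1 at an unadjusted p under 0.05; no other tool was run on the lists). The median was -0.07 over the COPII list and 0.05 over the GATOR list. In this comparison 6982 of the 19010 genes tested had an unadjusted p under 0.05.

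For scale, all 25 genes of a list for DNA synthesis in S phase fell in KO gel against KO media, with a median of -0.54. Beside this stand the 16.8% lower of the 9959 abundant genes and their median of -0.08. The list was chosen with earlier results of these data known. Tk1, a thymidine kinase, went from 78.4 ± 2.90 to 51.6 ± 4.35 CPM, and Rrm1, a ribonucleotide reductase subunit, from 411 ± 9.23 to 283 ± 16.9 (SD, n = 3). Of 15 tested genes of the nuclear lamina and of the LINC complex, which ties nucleus to cytoskeleton, 6 fell and 3 rose. These are 40% and 20%, beside 16.8% and 6.42% of the abundant genes. Nrm, an inner membrane protein, fell by 0.59 (log2, SE 0.07, adjusted p 0.00011) and Lmnb1, a B-type lamin, by 0.33 (SE 0.06, adjusted p 0.0024), whereas Lmna, which encodes the A-type lamins, rose from 5.47 ± 0.55 to 15.7 ± 2.66 CPM (1.52, SE 0.22, adjusted p 0.00045). The S phase and lamina lists move beside the pore genes in the same 3 libraries; their part in the result was not tested.

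**Figure D5:**
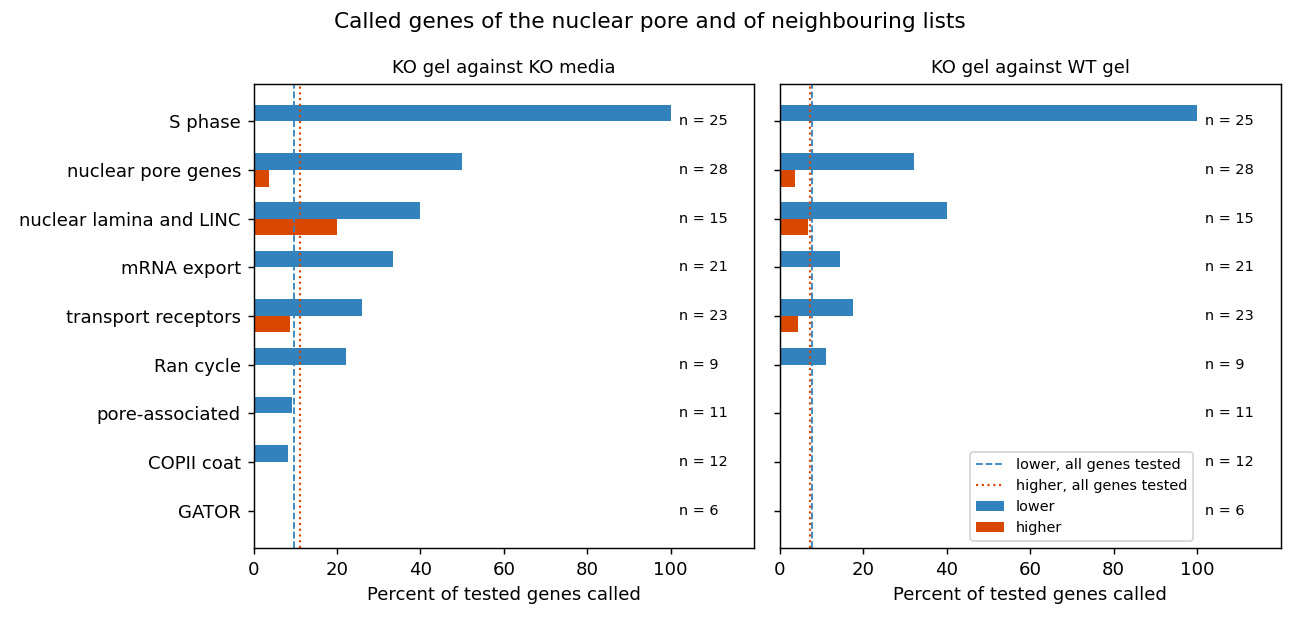
Percent of tested genes called lower (blue) and higher (orange) in the nuclear pore genes and 8 other lists, in KO gel against KO media and against WT gel; n is the number tested, and the dashed and dotted lines mark the shares among all genes tested (9.74% lower and 11.1% higher; 7.71% and 7.12%). The S phase bar reaches all 25 genes in both panels, and 14 and 9 of the 28 pore genes are lower. The lists were chosen with earlier results of these data known.

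Against WT gel the same lists gave 4 lower and 1 higher of 23 transport receptors, 1 lower of 9 Ran cycle genes, 3 lower of 21 mRNA export genes and 25 lower of 25 S phase genes. The first 3 lists had 17.4%, 11.1% and 14.3% lower, near the 13.3% of the abundant genes. In that comparison 0 of the 11 other pore-associated, 12 COPII and 6 GATOR genes passed edgeR's test, with 3, 1 and 0 at an unadjusted p under 0.05. Over the 19010 genes tested, 5715 had an unadjusted p under 0.05. In the lamina and LINC list 6 were lower and 1 higher. In WT gel against WT media and in KO media against WT media, 0 genes of any of the 8 lists were called. The interaction called Ipo7 (-0.58, SE 0.12, adjusted p 0.023), Rcc1 (-0.40, SE 0.09, adjusted p 0.027), 22 of 25 S phase genes and 3 lamina and LINC genes (Nrm, Emd and Lmnb2), all more negative in KO cells.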

How the data were processed

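The deposited table holds raw counts per gene symbol and library, made by the authors; it contained 0 columns of other samples. The submitters' processing notes name HISAT2 and featureCounts on GRCm38 (mm10), besides FastQC, MultiQC, SAMtools and Picard. No source states versions, annotation, strand setting or the handling of duplicate and multi-mapping reads (not given in the sources used here). Reads of overlapping, antisense or near-identical genes can therefore be shared or lost. Per the labels' protocols, 150 ng of total RNA per library were depleted of ribosomal RNA with RiboCop and prepared with the KAPA HyperPrep kit.

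Low genes were removed with filterByExpr of edgeR (19010 of 55291 symbols stayed). Counts were scaled by TMM and fitted over the 4 groups together, with the robust quasi-likelihood F test (R 4.3.3, edgeR 4.0.16, limma 3.58.1, DESeq2 1.42.0). There were 5 contrasts: gel against media in each genotype, KO against WT in each culture, and their interaction. Calls needed an adjusted p under 0.05 (Benjamini-Hochberg, over the 19010 genes). The SE is that of the log2 fold change. Heatmap levels used a prior count of 2. The procedure was run on simulated counts for KO gel against KO media, with 200 genes changed. It recovered 32% of the 1.25-fold changes and 92% of the 1.5-fold ones. Of its 171 calls, 14 were false. The data held far more calls (2111 higher and 1851 lower), so the adjustment was stricter in the simulation than in the data. The recovery rates therefore do not describe the test on the data. Changes of about 1.25-fold can be missed.

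The members and gene lists were chosen with earlier results of these data known. Every member is named; values in every library are given for the first 12 called members by their smallest p, for the leading member of each role and for Nup210, which was added because of its abundance; up to 3 genes per other list are named by p in KO gel against KO media, with called genes first, and Kpna4, Emd and Lmnb2 were added after their values were seen. In the 8 lists 1 symbol was not in the table (Ddx39a) and 1 was not tested (Plpp7).

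The main fit used no block, because the labels do not say that media and gel libraries share mice. Same-numbered libraries deviated together in WT media and WT gel (correlations 0.784, 0.237 and 0.793) and in WT and KO media (0.21, 0.161 and 0.379). This did not hold in every pair with KO gel. Positions and exon lengths came from GENCODE M21 (GRCm38), in which all 29 members were found; promoters came from RefSeq. Alternatives were DESeq2 size factors, total-count scaling, other filters, DESeq2, limma-voom, a fit of the 2 groups compared, a replicate block, and leaving out each library or both libraries rich in ribosomal RNA.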

Additional observations from a re-analysis of the deposited data

Results flagged for a closer look

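For 6 nuclear pore genes the gel response differed between KO and WT cells by the test of the difference itself, the interaction of genotype and culture in edgeR's quasi-likelihood fit with Benjamini-Hochberg adjustment. The difference, KO minus WT on the log2 scale, was -0.65 for Ndc1 (SE 0.16, adjusted p 0.0459), -0.63 for Nup43 (SE 0.14, adjusted p 0.031), -0.53 for Nup133 (SE 0.11, adjusted p 0.0264) and -0.42 for Nup205 (SE 0.09, adjusted p 0.0279). For Nup107 it was -0.35 (SE 0.09, adjusted p 0.0486). Nup210l had the opposite sign at 1.07 (SE 0.19, adjusted p 0.012). Across 21 alternatives the highest adjusted p was 0.194 for Ndc1, 0.347 for Nup107, 0.139 for Nup133, 0.213 for Nup205, 0.11 for Nup43 and 0.0686 for Nup210l, so none of the 6 passed in all of them.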

How the results depend on the processing

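No value of a called member changed sign under any alternative. Of the results per gene, 2823 stayed on their side of the threshold, 109 lost and 64 gained a call. Values of members that were not called could change sign. For Aaas in KO gel against KO media, near 0 in the main fit, 9 of 22 alternatives kept the sign. For members lower in KO gel than in KO media (14), scaling by total counts gave 8, leaving out both libraries rich in ribosomal RNA 8, and leaving out 1 library 9 to 17; the replicate block gave 15, and 18 by genotype. For members lower in KO gel than in WT gel (9), total counts gave 4, and leaving out 1 library 6 to 10. With total counts 4.57% of all genes tested were lower in KO gel than in KO media, and 2.14% lower than in WT gel. For KO media against WT media (0 higher), no filter gave 3. For the interaction of genotype and culture, the 5 negative members became 0 with total counts, 12 with no filter, 1 with only genes at a mean log2 CPM of at least 3, 9 with DESeq2, 3 with limma-voom, 0 without both libraries rich in ribosomal RNA, and 0 to 8 when 1 library was left out. The 1 positive interaction, that of Nup210l, became 0 without both of those libraries. Negative interactions made up 0.126% of all genes tested with total counts and 1.24% of the abundant genes fitted alone. Shares over all genes with no filter, DESeq2 and limma-voom are not given here. With the replicate block the negative interactions numbered 10, and 13 with the block by genotype. Replicate numbers pair libraries only by number: correlations of same-numbered deviations exceeded 0.1 in 15 of 18 pairs, and 10 of 12 libraries matched their own number best, as a hint from the data. For WT gel against WT media and KO media against WT media the replicate block changed no call (0 members). The cause of these shifts was not tested. Depth was at least 197 counts per library for each tested member.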
